A study of Mus musculus with 6 samples.

Results

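Cytochrome bc1 (complex III), cytochrome c, ATP synthase and a chosen set of cytochrome oxidase subunits were followed in fetal mouse heart at embryonic days 16.5 and 18.5 (E16.5, E18.5). The genes were taken by symbol: protein-coding rows whose names begin with Uqcr or Atp5, without pseudogene suffixes, together with Cyc1, Cycs, Cox5a, Cox5b, Cox6c, Cox7b and Cox7c. The rule gave 32 genes of the 31529 in the deposited table. The rule itself uses no expression value, but it was set with earlier results of these data known. All hearts came from wild-type ICR mice, an outbred stock, and no treatment is given. Each stage had 3 libraries of oligo(dT)-selected RNA, which the series describes as biological replicates. The sources used here do not say whether hearts or litters were pooled.

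These proteins form the second part of the respiratory chain. Complex III passes electrons from ubiquinol to cytochrome c, cytochrome c carries them to cytochrome oxidase, and the proton gradient built on the way drives ATP synthase. Each of the 3 complexes has at least 1 subunit encoded by mitochondrial DNA, and the others are encoded by nuclear genes, which are the ones described here. The heart around birth is known for a shift from glycolysis towards oxidative metabolism.

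Library totals ran from 61443414 to 77237333 estimated counts, and every one of the 32 genes had at least 1082 counts in every library. The share of counts on mitochondrially encoded genes was 41.4%, 19.9% and 35.0% for replicates 1, 2 and 3 of E16.5, against 33.5%, 26.7% and 25.2% for those of E18.5. E16.5 replicate 2 therefore had the lowest share of all, and it stood apart from the other E16.5 libraries in many of the genes below. In several of them, such as Atp5g3 and Cox5a, its level lay nearer to E18.5 replicates 2 and 3 than to the other E16.5 libraries. The labels were kept as given, and whether the library carries the right label or differs in quality was not tested. Results that rest on it are given with and without it. Levels are TMM-scaled CPM (counts scaled to a common library size), and values for a stage are listed in the order of replicates 1, 2 and 3. Cardiomyocyte transcripts were abundant in every library, with Tnnt2 (cardiac troponin T) between 4742 and 6155 CPM.

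All 32 genes had a higher fitted level at E18.5, but none passed the test. The log2 change ran from 0.10 for Cox7c to 0.73 for Atp5g3, with a median of 0.41. Over the 19959 genes tested the median was -0.0019, and 49.8% of genes had a positive change. At an adjusted p under 0.05 in edgeR, 0 of the 32 genes were called, against 0.0952% of all genes called higher and 0.15% called in either direction. DESeq2 and limma also called 0 of them. At an unadjusted p under 0.05 in edgeR, 9 of the 32 were higher, where 4.83% of all genes were, and 0 were lower, where 4.7% of all genes were. The adjusted p of the 32 genes lay between 0.367 and 0.876. With library totals and no TMM, and with limma on log2(FPKM + 1), 1 of the 32 had an unadjusted p under 0.05. In 10 of the 32, every E18.5 library lay above every E16.5 library, which held for 8.45% of all genes. None of the 32 showed the opposite order, which 8.02% of all genes did. The 32 genes were measured in the same 6 libraries, so their changes are not independent of each other.

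**Figure D1:**
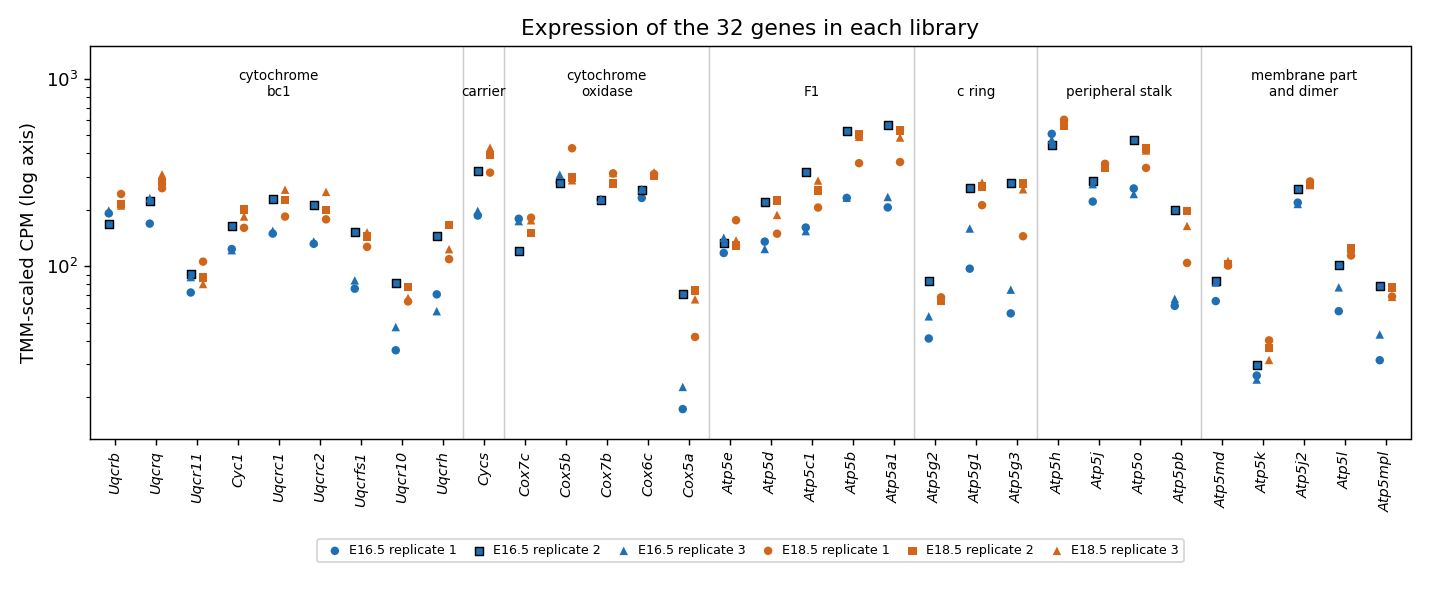
TMM-scaled CPM (log axis) of each of the 32 genes in every library, grouped by role and ordered within a role by the gap of E16.5 replicate 2. Blue points are E16.5 and orange points E18.5, the marker shape gives the replicate number, and E16.5 replicate 2 is outlined in black. In 28 of the 32 genes, E16.5 replicates 1 and 3 both lie below all E18.5 libraries, while the outlined squares often lie among the E18.5 points.

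The overlap of the stages came mostly from 1 library. E16.5 replicates 1 and 3 were both below every E18.5 library in 28 of the 32 genes, where 22.5% of all genes showed this order. E16.5 replicate 2 was the highest E16.5 library in 24 genes, was above E18.5 replicate 1 in 18 and was above all E18.5 libraries in 10. The shares of all genes with these orders were not counted, so these counts alone do not set the library apart. Relative to each gene's mean over the 6 libraries, the median log2 deviation of the 32 genes was -0.45, 0.18 and -0.34 at E16.5 against 0.11, 0.23 and 0.25 at E18.5.

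Without E16.5 replicate 2, edgeR called 9 of the 32 genes higher at E18.5, where 1.2% of all genes were called higher, and 26 had an unadjusted p under 0.05 in that direction, where 13.1% of all genes did. The median log2 change over the 32 genes was then 0.56. Leaving out another E16.5 library lowered it: without replicate 1 the median was 0.25 and 3 genes had an unadjusted p under 0.05 (4.02% of all genes were higher at that threshold), and without replicate 3 it was 0.28 and 4 genes did (3.47%). Neither of these fits called any of the 32. The 9 genes called without E16.5 replicate 2 were Cycs, Atp5l, Uqcrfs1, Atp5mpl, Uqcrh, Cox5a, Atp5b, Atp5g3 and Atp5a1, with log2 changes from 0.82 to 1.79. In each of them that library was the highest at E16.5. Leaving it out therefore raises the change and narrows the range at E16.5 by construction. These calls, and the adjusted p-values without that library given below, describe how far the result rests on it and add no support. In the fit without E16.5 replicate 2, the remaining E16.5 libraries had mitochondrial shares of 41.4% and 35.0%. Every E18.5 library lay below them, at 33.5%, 26.7% and 25.2%. Stage and mitochondrial share therefore cannot be told apart in that fit. With the mitochondrial share of each library as a term in the fit on all 6 libraries, 2 of the 32 were called higher (0.646% of all genes), Cycs with an adjusted p of 0.0301 and Atp5g3 with 0.0487. In that fit 23 had an unadjusted p under 0.05 (8.4% of all genes), and the median log2 change was 0.33.

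The libraries could also be compared within bands of mitochondrial share. Above 30% stood E16.5 replicates 1 and 3 and E18.5 replicate 1, and there all 32 genes were higher at E18.5, with a median log2 difference of 0.49. Below 30% stood E16.5 replicate 2 and E18.5 replicates 2 and 3, and there 17 genes were higher and 15 lower, with a median of 0.062. The difference between stages therefore did not hold for all 32 genes within the lower band. The 10 genes whose stages did not overlap were higher at E18.5 in both bands, which follows from how they were picked and adds no support. These bands hold 3 libraries each, which allows no test, and the part of the mitochondrial share in the change between stages was not tested beyond these values.

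**Figure D2:**
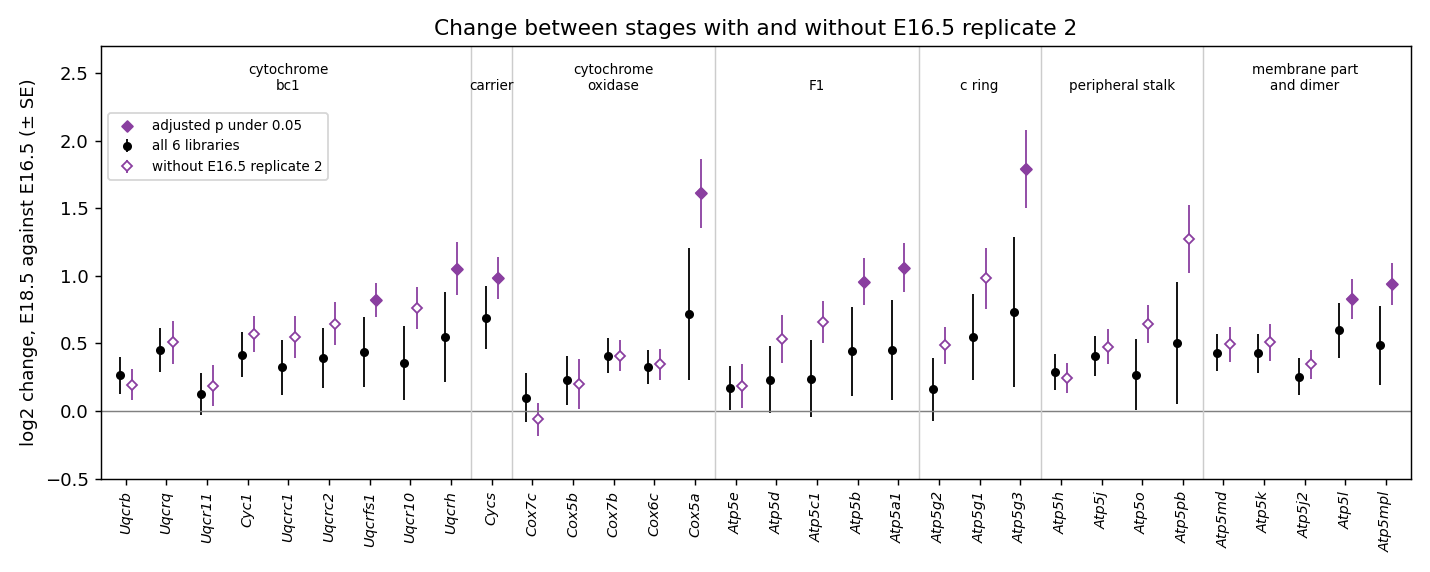
Fitted log2 change from E16.5 to E18.5 with its standard error for each of the 32 genes, from edgeR on all 6 libraries (black circles) and without E16.5 replicate 2 (purple diamonds, filled where the adjusted p was under 0.05). All black circles lie between 0.10 and 0.73, and the 9 filled diamonds lie between 0.82 and 1.79. In the genes with filled diamonds the library left out was the highest at E16.5, which raises the change by construction.

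The start regions of the genes were searched for the binding motifs of factors known for nuclear genes of the respiratory chain. RefSeq promoter windows (GRCm38.p6, 250 bases before to 50 after each start) were matched by symbol for 25 of the 32 genes, in 28 windows. The motif of nuclear respiratory factor 1 was searched as GCGCATGC, that of GABP and other ETS factors as CCGGAAGT, that of the estrogen-related receptors as AAGGTCA and that of YY1 as AAGATGGC, each on both strands. GCGCATGC stood in 6 of the 28 windows (21.4%), those of Atp5g2, Atp5k, Atp5l, Cycs, Uqcr11 and Uqcrc1. It stood in 2.71% of all 32851 windows and in 4.41% of those of tested genes. AAGGTCA stood in 4 windows (14.3%, against 4.72% of all windows and 3.61% of those of tested genes), those of Atp5e, Atp5g3, Atp5k and Atp5l. CCGGAAGT stood in 3 (10.7%, against 3.89% and 6.60%), those of Atp5h, Uqcr11 and Uqcrh. AAGATGGC also stood in 3 (10.7%, against 2.75% and 3.75%), those of Atp5j, Atp5j2 and Atp5pb. A match describes the letters in the window and does not show binding.

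Upstream regions of 3 genes are printed because their genes were the carrier, the c-subunit gene and the dimer subunit with the highest fitted changes of their groups, a choice made after their values were seen. Each is the 250 bases before the RefSeq start on the minus strand, 5′ to 3′, with the motif matches in capitals: GCGCATGC (read here on its other strand) in Cycs and Atp5l, and AAGGTCA (also on its other strand) in Atp5l and Atp5g3.
Cycs, chr6:50566570-50566819: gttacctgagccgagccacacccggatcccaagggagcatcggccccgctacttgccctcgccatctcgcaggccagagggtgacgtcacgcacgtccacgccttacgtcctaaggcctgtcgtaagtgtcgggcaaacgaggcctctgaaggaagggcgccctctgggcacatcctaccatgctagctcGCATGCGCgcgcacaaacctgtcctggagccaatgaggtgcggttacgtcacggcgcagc
Atp5l, chr9:44920743-44920992: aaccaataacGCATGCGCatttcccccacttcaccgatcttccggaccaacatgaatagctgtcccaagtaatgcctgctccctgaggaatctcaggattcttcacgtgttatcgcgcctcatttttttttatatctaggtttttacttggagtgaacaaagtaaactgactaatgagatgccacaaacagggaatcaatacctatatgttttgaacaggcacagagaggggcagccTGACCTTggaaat
Atp5g3, chr2:73911327-73911576: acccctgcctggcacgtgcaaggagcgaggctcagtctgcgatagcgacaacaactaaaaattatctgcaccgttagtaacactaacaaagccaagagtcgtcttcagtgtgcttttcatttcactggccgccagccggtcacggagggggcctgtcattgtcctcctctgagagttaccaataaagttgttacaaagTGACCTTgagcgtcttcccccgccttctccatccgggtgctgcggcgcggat
The GCGCATGC match began at position -60 in Cycs and -240 in Atp5l, counted from the start site, and the AAGGTCA match at -13 in Atp5l and -52 in Atp5g3. In GENCODE M21, exons of antisense transcripts overlap 177 bases of the Cycs window (5430402O13Rik) and 9 bases of the Atp5l window (Gm30934), and no exon overlaps the Atp5g3 window.

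Of the factors themselves, 0 of 12 in a list of respiratory gene regulators were called, and 1 had an unadjusted p under 0.05. That gene was Pprc1, a coactivator related to PGC-1alpha, with 29.7, 28.9 and 29.5 CPM at E16.5 against 41.5, 42.3 and 46.5 at E18.5 (log2 change 0.56 ± 0.12 SE, edgeR adjusted p 0.164). Its stages did not overlap and E16.5 replicate 2 did not stand apart. Gabpb1, a beta subunit of GABP, had 45.1, 36.9 and 44.3 CPM at E16.5 against 35.3, 34.6 and 35.1 at E18.5 (log2 change -0.27 ± 0.13 SE, adjusted p 0.547), and its stages did not overlap. Esrrg, an estrogen-related receptor, had a log2 change of -0.43 ± 0.30 SE (adjusted p 0.674). Stages overlapped for Nrf1, Gabpa and Esrra, whose log2 changes were -0.13, -0.15 and 0.18. Ppargc1a, which encodes PGC-1alpha, had a log2 change of 0.10.

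In complex III, all 9 nuclear genes had positive changes, with a median of 0.39, and 2 had an unadjusted p under 0.05. Cyc1 encodes cytochrome c1, the heme protein that hands electrons to cytochrome c (chr15:76343523-76346260 on GRCm38). Its level was 123, 163 and 122 CPM at E16.5 against 160, 201 and 184 CPM at E18.5. The stages overlapped by a single library, E16.5 replicate 2, which lay just above E18.5 replicate 1. The log2 change was 0.42 ± 0.17 SE (edgeR adjusted p 0.478), and without that library 0.57 ± 0.13 (adjusted p 0.0633). Uqcrfs1, the Rieske iron-sulfur protein, had 75.8, 153 and 83.9 CPM at E16.5 against 127, 144 and 152 at E18.5. Here E16.5 replicate 2 was above all E18.5 libraries, and the other E16.5 libraries were below them all. The log2 change was 0.43 ± 0.26 SE (adjusted p 0.620), and without that library 0.82 ± 0.13 (adjusted p 0.0380).

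The small subunits of complex III divided by how E16.5 replicate 2 behaved. Uqcrq had 169, 223 and 231 CPM at E16.5 against 261, 281 and 310 at E18.5, a log2 change of 0.45 ± 0.16 SE (adjusted p 0.432). Uqcrb had 191, 167 and 198 CPM at E16.5 against 243, 214 and 211 at E18.5, a log2 change of 0.26 ± 0.14 SE (adjusted p 0.577). In both, the stages did not overlap and E16.5 replicate 2 was not the highest E16.5 library. In Uqcrh, the hinge protein, that library read 144 CPM against 70.7 and 57.5 CPM in replicates 1 and 3, and the log2 change was 0.55 ± 0.33 SE with it and 1.05 ± 0.20 without it (adjusted p 0.0480 without). Uqcr10 read 81.6 CPM there against 35.5 and 47.3 CPM, with a log2 change of 0.35 ± 0.27 SE over all libraries. Uqcr11 had the lowest change of the complex, 0.12 ± 0.16. The core proteins Uqcrc1 and Uqcrc2, which face the matrix, had log2 changes of 0.32 ± 0.21 and 0.39 ± 0.22 SE.

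Of 7 factors in the list for the assembly of complex III, 2 had a positive and 5 a negative change, with a median of -0.012, and 0 had an unadjusted p under 0.05. The split turned to 5 positive and 2 negative with library totals and no TMM and with both limma fits, and to 4 and 3 with the replicate block, with the mitochondrial share as a term and without E18.5 replicate 3. Lyrm7, which brings in the Rieske protein, had 7.20, 2.65 and 5.21 CPM at E16.5 against 3.33, 3.11 and 3.63 CPM at E18.5 (log2 change -0.58 ± 0.35 SE, adjusted p 0.625). Uqcc3 had -0.11 ± 0.14 and Ttc19 -0.052 ± 0.14. A test of subunits against assembly factors was not made.

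Cycs encodes somatic cytochrome c (chr6:50562563-50566538, minus strand, GRCm38), and its upstream region is printed above. It had 186, 321 and 197 CPM at E16.5 against 316, 392 and 429 CPM at E18.5. E16.5 replicates 1 and 3 were far below E18.5, and replicate 2 was level with E18.5 replicate 1. The log2 change of 0.69 ± 0.23 SE had an adjusted p of 0.397, against 0.98 ± 0.15 and 0.0380 without E16.5 replicate 2. Copies with at least 90% identity over its coding sequence held counts equal to 28.2% of those of Cycs, so its own level is uncertain. Hccs, the enzyme that attaches heme to cytochrome c and the only gene of its list, had 14.9, 19.2 and 16.1 CPM at E16.5 against 22.6, 24.02 and 23.6 at E18.5. Its stages did not overlap, with a log2 change of 0.48 ± 0.15 SE (adjusted p 0.356).

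The cytochrome oxidase subunits had a median log2 change of 0.33, with 5 of 5 positive and 2 at an unadjusted p under 0.05. Cox7b had the smallest p of all 32 genes (chrX:106015700-106022450 on GRCm38). Its level was 226, 226 and 228 CPM at E16.5 against 313, 276 and 314 CPM at E18.5. The E16.5 libraries agreed closely with each other, E16.5 replicate 2 included, and all lay below E18.5. The log2 change was 0.41 ± 0.13 SE, with an unadjusted p of 0.0126 and an adjusted p of 0.367. Cox6c had 231, 254 and 258 CPM at E16.5 against 310, 304 and 317 at E18.5, again without overlap (log2 change 0.33 ± 0.13 SE, adjusted p 0.472).

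The other oxidase subunits had overlapping stages. Cox5a, an early-assembled subunit that meets the matrix, read 17.2, 70.8 and 22.6 CPM at E16.5 against 41.9, 74.1 and 66.5 at E18.5, so that its libraries differed more within a stage than between the stage means. Its log2 change was 0.72 ± 0.49 SE with all libraries and 1.61 ± 0.25 without E16.5 replicate 2 (adjusted p 0.0383 without). Cox5b read 426 CPM in E18.5 replicate 1 and between 277 and 308 CPM in the other 5 libraries, with a log2 change of 0.23 ± 0.18 SE. Cox7c had the smallest change of the 32 genes, 0.10 ± 0.18 SE. In it E16.5 replicate 2 was the lowest library of all at 120 CPM, the reverse of its place in Cox5a.

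Assembly factors of cytochrome oxidase, like those of complex III, had a smaller median change than the subunits. Of 25, 15 were positive and 10 negative, with a median of 0.10, and 0 had an unadjusted p under 0.05. Cox10, which makes heme for the oxidase, had 22.4, 16.6 and 20.9 CPM at E16.5 against 31.9, 22.9 and 23.6 CPM at E18.5 (log2 change 0.39 ± 0.18 SE, adjusted p 0.548). Cox16 had -0.32 ± 0.15 and Coa4 -0.33 ± 0.19.

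ATP synthase is a rotary enzyme with a catalytic F1 head, a ring of c subunits that turns in the membrane, a peripheral stalk that holds the head still, and small membrane subunits, some of which join enzymes into dimers. All 17 of its genes had positive changes, with a median of 0.43, and 4 had an unadjusted p under 0.05. The roles differed in how far E16.5 replicate 2 stood from the other E16.5 libraries. The median log2 gap of that library over the mean of replicates 1 and 3 was 1.01 for the 5 genes of F1, 1.08 for the 3 of the c ring, 0.56 for the 4 of the stalk and 0.26 for the 5 of the membrane part and dimer.

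The F1 genes had the lowest median change of the ATP synthase groups, 0.24, and 0 of 5 had an unadjusted p under 0.05. Atp5a1, the alpha subunit, had 206, 567 and 234 CPM at E16.5 against 360, 529 and 486 at E18.5. Atp5b, the catalytic beta subunit (chr10:128083273-128090391 on GRCm38), had 231, 529 and 232 CPM at E16.5 against 355, 504 and 491 at E18.5. In both, E16.5 replicate 2 was above every E18.5 library and the other E16.5 libraries were below every one. The log2 change was 0.45 ± 0.37 SE for Atp5a1 and 0.44 ± 0.33 for Atp5b, and without that library 1.06 ± 0.18 (adjusted p 0.0426) and 0.96 ± 0.17 (adjusted p 0.0447). Atp5c1, the gamma subunit of the rotor shaft, had 0.24 ± 0.28, Atp5d, the delta subunit, 0.23 ± 0.25, and Atp5e, the epsilon subunit, 0.17 ± 0.16. In the band below 30% mitochondrial share, all 5 F1 genes were lower at E18.5, from -0.23 to -0.0085 on the log2 scale, while in the upper band all 5 were higher.

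Atpif1 encodes the inhibitor that binds F1 and slows ATP hydrolysis, and its symbol lies outside the naming rule. It had 43.5, 107 and 50.2 CPM at E16.5 against 66.1, 95.9 and 91.8 at E18.5 (log2 change 0.34 ± 0.33 SE, adjusted p 0.764), with the same high library at E16.5 as its partner. The ratio of Atpif1 to Atp5b in FPKM was 0.553, 0.597 and 0.635 at E16.5 against 0.547, 0.560 and 0.550 at E18.5. The means were 0.595 ± 0.0411 (SD, n = 3) and 0.552 ± 0.00648 (SD, n = 3). The stages overlapped, and a two-sided exact permutation test gave p = 0.2 (0.4 adjusted over the 2 ratio comparisons made), where the smallest p that 3 against 3 libraries allow is 0.1. E16.5 replicate 2 lay between the other E16.5 libraries in this ratio.

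The c ring is built from 1 protein that 3 genes encode with different import sequences. Atp5g3 (chr2:73908447-73911326, minus strand, GRCm38) had 55.9, 277 and 74.9 CPM at E16.5 against 144, 276 and 257 at E18.5. Its E16.5 replicate 2 was level with E18.5 replicates 2 and 3, and this was the widest gap within E16.5 of the 32 genes. The log2 change was 0.73 ± 0.56 SE (adjusted p 0.698), and without that library 1.79 ± 0.29 (adjusted p 0.0404). Atp5g1 had 96.9, 262 and 159 CPM at E16.5 against 212, 266 and 279 at E18.5 (log2 change 0.55 ± 0.32 SE, adjusted p 0.615). Atp5g2 had 41.1, 83.6 and 53.9 CPM at E16.5 against 68.1, 66.1 and 65.3 at E18.5 (log2 change 0.16 ± 0.24 SE, adjusted p 0.849). Atp5g2 was the most even of the 3 at E18.5. Copies held counts equal to 24.4% of those of Atp5g1 and 24.9% of those of Atp5g2, so these levels are uncertain, while no copy of Atp5g3 met the same search.

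Within the summed FPKM of the c-subunit genes, Atp5g1 made up 28.2%, 23.2% and 32.7% at E16.5 against 28.7%, 24.6% and 26.6% at E18.5. The means were 28.0% ± 4.77 and 26.6% ± 2.06 (SD, n = 3), which differed by less than the spread (two-sided exact permutation test, p = 0.7, also 0.7 adjusted). Atp5g3 made up 36.7%, 55.1% and 34.7% at E16.5 against 44.2%, 57.4% and 55.2% at E18.5. In its share too, E16.5 replicate 2 matched E18.5 replicates 2 and 3 more closely than the other E16.5 libraries, and the 3 libraries with under 30% mitochondrial counts had the highest shares. The sizes of the shares and the order of the genes depend on the length used for each gene and on the copies. Per kilobase of the principal GENCODE transcript, the mean share of Atp5g1 was 48.6% at E16.5 against 47.8% at E18.5, and that of Atp5g3 was 27.6% against 34.9%. With copies added to the FPKM, the mean share of Atp5g1 was 56.5% against 52.3%, and that of Atp5g3 was 19.8% against 28.2%. By both of these measures Atp5g1 held the largest share in every library.

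**Figure D3:**
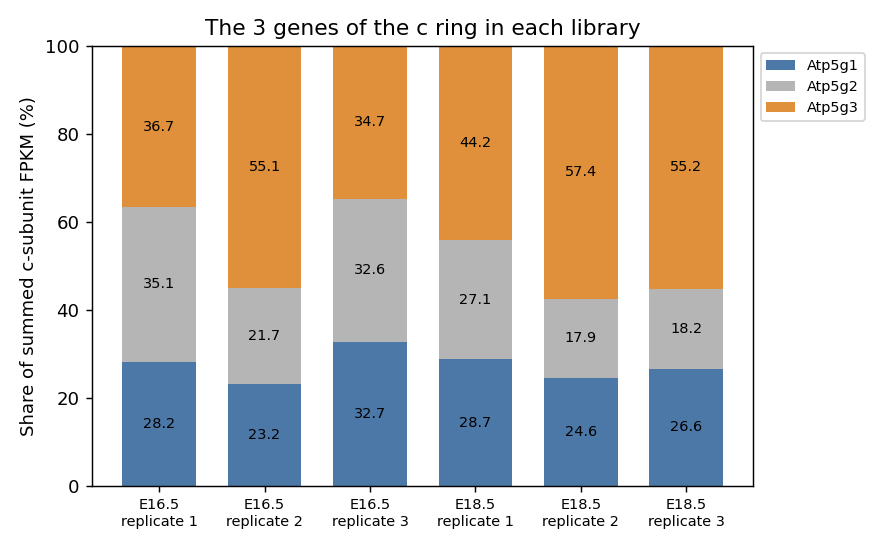
Share of the summed FPKM of the c-subunit genes (%) held by Atp5g1, Atp5g2 and Atp5g3 in each library. Atp5g3 holds over 50% in E16.5 replicate 2 and E18.5 replicates 2 and 3, and 34.7% to 44.2% in the other 3 libraries. Per kilobase of the principal transcript, or with copies added, Atp5g1 and not Atp5g3 holds the largest share in every library.

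In the peripheral stalk, Atp5j and Atp5h had stages that did not overlap. Atp5j, coupling factor 6, had 221, 283 and 274 CPM at E16.5 against 352, 333 and 346 at E18.5 (log2 change 0.41 ± 0.15 SE, adjusted p 0.431). Atp5h, subunit d, had 509, 443 and 474 CPM at E16.5 against 605, 565 and 572 at E18.5 (log2 change 0.29 ± 0.14 SE, adjusted p 0.546). E16.5 replicate 2 was its lowest library. Atp5o, the protein that ties the stalk to F1, had 0.27 ± 0.26, and Atp5pb, subunit b, had 0.50 ± 0.45, with 199 CPM in E16.5 replicate 2 against 61.4 and 66.9 CPM in replicates 1 and 3. Genes on the opposite strand overlap 13 of the 32 loci, and the sources used here do not say if strand was used in counting. The largest such partner was Wdr77, with counts equal to 18.8% of those of Atp5pb.

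The membrane and dimer subunits held 4 of the 10 genes without overlap. Atp5l, subunit g, whose upstream region is printed above, had 57.5, 102 and 77.02 CPM at E16.5 against 114, 125 and 119 at E18.5 (log2 change 0.60 ± 0.20 SE, adjusted p 0.398). Without E16.5 replicate 2 the change was 0.83 ± 0.15 (adjusted p 0.0447). Atp5k, subunit e, which pairs with g in the dimer, had 26.0, 29.8 and 24.8 CPM at E16.5 against 40.2, 36.6 and 31.6 at E18.5 (log2 change 0.43 ± 0.14 SE, adjusted p 0.397). Both e and g were without overlap between stages. Atp5md, also called DAPIT, had 65.0, 83.0 and 81.8 CPM at E16.5 against 101, 103 and 107 at E18.5 (log2 change 0.43 ± 0.14 SE, adjusted p 0.377). Atp5j2, subunit f, had 218, 259 and 215 CPM at E16.5 against 284, 271 and 271 at E18.5 (log2 change 0.25 ± 0.14 SE, adjusted p 0.588). The fifth gene, Atp5mpl, encodes the 6.8 kDa proteolipid and overlapped between stages, with 78.3 CPM in E16.5 replicate 2 against 31.4 and 43.2 CPM in replicates 1 and 3 (log2 change 0.49 ± 0.29 SE). Copies equal to 17.8% of the counts of Atp5l and 6.81% of those of Atp5md make these levels less certain. Of 6 assembly factors of ATP synthase, 4 were positive and 2 negative with a median of 0.20, and 0 had an unadjusted p under 0.05. The smallest p in that list was that of Fmc1, with a log2 change of 0.41 ± 0.26 SE, followed by Atpaf1 with 0.29 ± 0.23 and Atpaf2 with -0.19 ± 0.18.

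The gap of E16.5 replicate 2 was not alike across the 32 genes. It ran from -0.55 in Cox7c to 2.10 in Atp5g3 on the log2 scale, with a median of 0.64, where the median over the tested genes with counts in those libraries was -0.0029. A positive gap was not particular to these genes. Its median was 0.92 for complex II, 0.52 for phosphate and nucleotide exchange, 0.52 for ATP synthase assembly, 0.24 for complex I and 1.01 for the erythroid markers. It was -0.28 for complex III assembly, -1.32 for the mitochondrially encoded partners and -0.27 for the cardiomyocyte markers. In 13 of the 32 genes the gap was under 0.3, and their coding sequences were all short, from 156 to 483 bases. The 10 genes with 500 or more coding bases, among them Cyc1, Uqcrc1, Atp5a1 and Atp5b, had gaps from 0.41 to 1.64. Short genes could have wide gaps too, as Atp5g3 and Cox5a show. Across the 32 genes, Spearman's rho between gap and coding length was 0.46, a description over genes that share the same 3 libraries. With transcript length it was 0.35, and over 14905 tested genes with a transcript in GENCODE it was -0.043. The 10 genes whose stages did not overlap had coding lengths from 174 to 483 bases and gaps from -0.22 to 0.62.

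**Figure D4:**
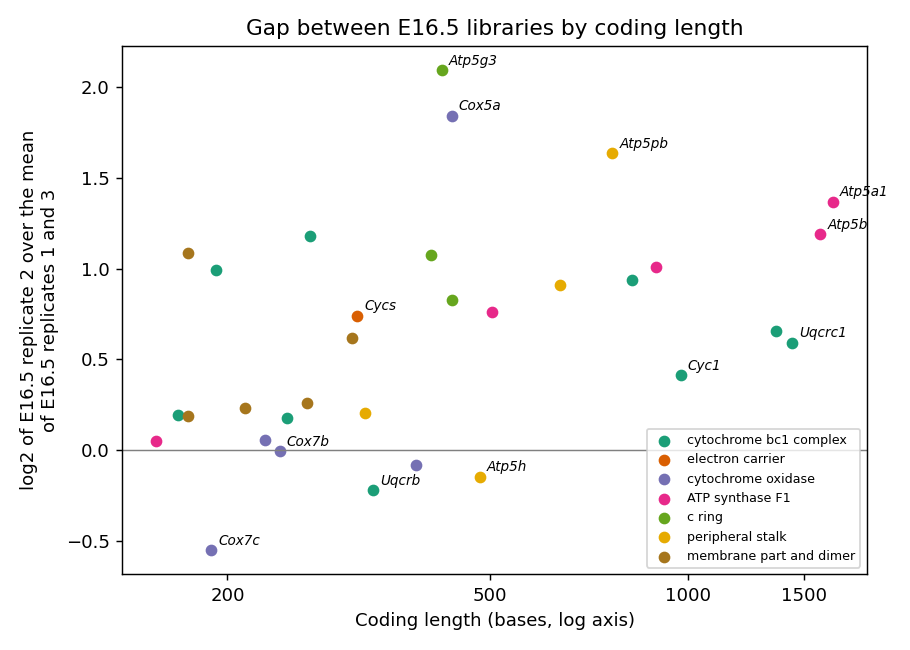
Log2 of E16.5 replicate 2 over the mean of E16.5 replicates 1 and 3 for each of the 32 genes (TMM-scaled CPM), against coding length in bases (log axis), coloured by role. Genes near or below 0 all have short coding sequences, and the 10 genes with 500 or more coding bases lie between 0.41 and 1.64.

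All 6 mitochondrially encoded partners in the list had negative changes over the 6 libraries, with a median of -0.35, and 0 had an unadjusted p under 0.05. The smallest p belonged to mt-Atp8 of ATP synthase (log2 change -0.48 ± 0.37 SE), mt-Cytb of complex III (-0.39 ± 0.37) and mt-Atp6 of ATP synthase (-0.34 ± 0.37). This direction was not stable. Without E16.5 replicate 1, 4 of the 6 were positive (median 0.028), and with both limma fits 1 was positive. Within the libraries below 30% mitochondrial share all 6 were higher at E18.5 (median 0.46), and within those above 30% 0 were (median -0.31). The counts of these genes are part of the share that sets the bands, so the values within bands add no support for either direction. The ratio of mt-Cytb to Cyc1 in CPM was 472, 131 and 397 at E16.5 against 265, 145 and 142 at E18.5. The ratio of mt-Atp6 to Atp5b was 145, 21.9 and 108 at E16.5 against 66.8, 33.0 and 30.8 at E18.5. The ratio of mt-Co1 to Cox5a was 9675, 662 and 5223 at E16.5 against 2591, 1030 and 1108 at E18.5. In each ratio E16.5 replicate 2 was the lowest of all 6 libraries, and in each E18.5 replicate 1 was the highest at its stage.

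Other nuclear genes of oxidative phosphorylation also had mostly positive changes. Of 39 complex I genes, 37 were positive with a median of 0.27, and 9 had an unadjusted p under 0.05, led by Ndufc2 (log2 change 0.70 ± 0.15 SE, adjusted p 0.185), Ndufb10 (0.56 ± 0.15) and Ndufa11 (0.48 ± 0.14). Of 4 complex II genes, all were positive with a median of 0.37, and Sdhb had the smallest p (0.42 ± 0.13, adjusted p 0.359), before Sdha (0.38 ± 0.26) and Sdhc (0.37 ± 0.27). Of 6 genes of phosphate and nucleotide exchange, all were positive with a median of 0.31. Slc25a4, the heart form of the ADP/ATP carrier that exports the product of ATP synthase, had 827, 1131 and 888 CPM at E16.5 against 1335, 1361 and 1538 at E18.5, without overlap (log2 change 0.57 ± 0.17 SE, adjusted p 0.353). The changes of Vdac3 and Vdac2, pores of the outer membrane, were 0.43 ± 0.23 and 0.24 ± 0.15. Differences between these lists and the 32 genes were not tested.

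Levels of different genes can be compared only per length. By mean FPKM, Atp5h was the highest of the 32 genes (289 at E16.5 against 379 at E18.5), followed by Uqcrb and Cox7b. Atp5l was the lowest, with 11.5 FPKM at E16.5 and 17.7 FPKM at E18.5, and ranked 32 by FPKM. The order below Atp5h depends on the length: per kilobase of the principal GENCODE transcript, Atp5h was again first, Uqcrq and Cox6c came next, and Atp5l ranked 20.

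Markers of other cell types were measured beside these results, and fewer cells of a type cannot be told apart from less RNA per cell in whole hearts. Of 10 cardiomyocyte markers, 8 had positive and 2 negative changes (median 0.23), and their summed level ranged from 32470 to 42150 CPM at E16.5 and from 37150 to 46365 CPM at E18.5. E16.5 replicate 2 had the lowest sum. All 8 fibroblast markers were positive (median 0.46, 3 at an unadjusted p under 0.05), with sums of 2260 to 3571 CPM at E16.5 and 3804 to 4991 CPM at E18.5. All 6 epicardial markers were positive (median 0.92), with sums of 89.3 to 102 CPM and 147 to 198 CPM, and 1 of them, Krt19, was called (log2 change 1.23 ± 0.14 SE, adjusted p 0.0219). Of 7 smooth muscle and pericyte markers, 6 were positive (median 0.43), with sums of 578 to 649 CPM and 816 to 875 CPM. The erythroid markers, 3 positive and 4 negative of 7, varied more within stages than between them, and their sum was 9415, 23776 and 15484 CPM at E16.5 against 8987, 16696 and 21095 CPM at E18.5. Hbb-bs, an adult beta globin gene, had 347, 2349 and 359 CPM at E16.5 against 478, 2633 and 2535 at E18.5, so it was high in the 3 libraries with under 30% mitochondrial counts. No marker of these 5 lists was at 0 in any library, and the part of these cells in the changes of the 32 genes was not tested.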

How the data were processed

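Polyadenylated RNA of fetal hearts was sequenced, with 3 libraries at each of 2 stages. Per the file headers, the values the authors deposited are estimated counts and FPKM, both in 1 table. StringTie 1.3.4d, HISAT2 2.0.4, UMI-tools, cutadapt 1.9 and mm9 appear, without roles, in the submitters' processing notes. Gene positions are from GENCODE M21 (GRCm38) by Ensembl identifier. Estimated counts were tested with the quasi-likelihood test of edgeR 4.0.16 (filterByExpr, TMM, stage as the only term, two-sided), adjusted over all 19959 genes by Benjamini-Hochberg. Ratios of FPKM were tested by exact permutation. Copies were found by BLAST 2.17.0 of coding sequences (at least 90% identity over 50% of the length). DESeq2 1.42.0, limma 3.58.1 on log2(FPKM + 1), other scalings, a replicate block, the mitochondrial share and leaving out each library were alternatives. The test was checked on simulated counts. The genes, lists and tests were chosen with earlier results of these data known. Values in every library are given for the 8 smallest p-values, for genes whose stages did not overlap and for chosen core subunits, and of other pathway lists the 3 smallest p-values are named. Single marker genes, mt-Co1 and other factors were named after their values were seen. The edgeR p-values set the difference between stages against the spread between these libraries, and the exact p-values set it against other assignments of libraries to stages. Whether that spread is one between animals is not known, as pooling is not stated.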

Additional observations from a re-analysis of the deposited data

How the results depend on the processing

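The median log2 change of the 32 genes stayed positive under every alternative run, from 0.25 to 0.56 when 1 library was left out, and was 0.062 within the libraries below 30% mitochondrial share. The count of the 32 genes called was 0 to 9 when 1 library was left out, and 2 with the mitochondrial share as a term. It was 0 under the other alternatives. The count at an unadjusted p under 0.05 was 9 in the main test (964 of all 19959 genes were higher at that threshold). It was 1 with library totals and no TMM (644 of 19959), 1 with limma on log2(FPKM + 1) (844) and 1 with limma on log2(FPKM + 0.1) (817). With the mitochondrial share it was 23 (1676 of 19959). It was 2 to 26 when 1 library was left out, lowest without E18.5 replicate 3 (619 of 20862) and highest without E16.5 replicate 2 (2744 of 20888). Over all genes, 30 were called in the main test, 12 without TMM, 393 by DESeq2, 10 and 18 by limma with the larger and smaller pseudocount, 184 with the mitochondrial share and 8 to 371 when 1 library was left out. With a replicate block, 0 of the 32 genes were called, 19 had an unadjusted p under 0.05 (1374 of all 19959 genes did and were higher), the median was 0.42 and 43 genes were called over all. A replicate block cannot change the mean differences of the ratios compared within the c ring and F1, as each number occurs once per stage. These differences were -1.39 percentage points and -0.10 on the log2 scale. Deviations of same-numbered libraries correlated at 0.36, 0.44 and -0.15, and those of other pairs across stages at -0.51 to 0.33. Whether the replicate numbers pair the libraries is therefore undecided.

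Within the libraries below 30% mitochondrial share, the log2 change turned negative for Atp5a1 (-0.16), Atp5b (-0.090), Atp5c1 (-0.23), Atp5d (-0.094), Atp5e (-0.0085), Atp5g2 (-0.35), Atp5g3 (-0.054), Atp5mpl (-0.11), Atp5o (-0.17), Atp5pb (-0.15), Cox5a (-0.014), Uqcr10 (-0.17), Uqcr11 (-0.12), Uqcrfs1 (-0.049) and Uqcrh (-0.012). With 1 library left out, Atp5g2 ran from -0.058 (without E16.5 replicate 1) to 0.49, Cox7c from -0.061 (without E16.5 replicate 2) to 0.19, and Uqcr11 from -0.0078 (without E18.5 replicate 1) to 0.20. The share of Atp5g1 among c-subunit FPKM differed by -3.82 to 0.94 percentage points when 1 library was left out, positive only without E16.5 replicate 3. The cause of these differences was not tested. Counts summed with copies gave the same calls. The 32 genes had at least 1082 counts in every library, and whether more depth would change a call was not tested.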

Other observations

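Gm10053, an annotated protein-coding copy with 100% identity to the coding sequence of Cycs, had 64.0, 73.5 and 66.7 CPM at E16.5 against 94.5, 88.2 and 96.6 CPM at E18.5 (log2 change 0.45 ± 0.12 SE, edgeR adjusted p 0.294). Its stages did not overlap, whereas those of Cycs did, and E16.5 replicate 2 stood less far from the other E16.5 libraries in the copy than in Cycs. Reads that match both loci can be divided between them by the authors' quantification; the sources used here do not say how. Gm10039, a processed pseudogene with 99.8% identity to the coding sequence of Atp5g1, had 51.2, 58.4 and 32.6 CPM at E16.5 against 47.7, 61.9 and 56.4 at E18.5 (log2 change 0.22 ± 0.22 SE). Markers of lung and liver were present at low levels, with Sftpc between 33.5 and 64.9 CPM and Alb between 10.7 and 59.5 CPM, and both were highest in E18.5 replicate 3. Xist was high in E16.5 replicates 2 and 3 and in E18.5 replicate 3, at 964, 1352 and 1189 CPM. It lay between 9.12 and 14.6 CPM in the other libraries. The part of fetal sex in the changes between stages was not tested.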
